A study of Mus musculus with 9 samples.

Results

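The apolipoproteins and the microsomal triglyceride transfer protein, which together build the very low density lipoprotein (VLDL) of the liver and direct its fate in plasma, were followed here in rat liver RNA. The deposited count table was searched by symbol for 10 genes, namely Apob, Mttp, Apoa4, Apoa5, Apoa1, Apoa2, Apoc1, Apoc2, Apoc3 and Apoe. They are 10 of its 19686 genes, each found at 1 place, and all 10 had enough counts to be tested in each of 3 comparisons.

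The study asked how fructose in the drinking water, and an extract of the herbal formula Danggui-Shaoyao-San (DSS) given with it, alter the liver. Liver RNA of 9 male Wistar rats was sequenced, 3 rats in each of 3 groups. The control group drank water and was given saline by mouth, the model group drank 15% fructose and was given saline, and the HME group drank 15% fructose and was given an extract of DSS in 50% methanol by mouth, at 1.8 g/kg. Treatment lasted 8 weeks, and the livers were taken after 12 h without food. The labels name the treated group DSS, and the study's text states that the 50% methanol extract was the one sequenced, so these rats are called HME. No group received the extract without fructose, 1 dose was used, and the age of the rats is not given in the sources used here. The labels give the mouse as organism and the Wistar rat as strain, while the identifiers in the count table belong to the rat.

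The liver packs triglyceride into VLDL for export. Apolipoprotein B forms the frame of the particle, and the microsomal triglyceride transfer protein loads lipid onto it as it is made in the endoplasmic reticulum. Smaller apolipoproteins then sit on the surface and can move between particles. In plasma, apolipoproteins C-II and A-V favour the breakdown of the triglyceride core by lipoprotein lipase, apolipoprotein C-III slows it, and apolipoprotein E brings the remnant back to receptors on the hepatocyte. Apolipoproteins A-I and A-II are the main proteins of high density lipoprotein (HDL), and A-IV, which rodents make in both intestine and liver, travels on triglyceride-rich particles and on HDL.

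Levels are given as CPM, the counts of a gene scaled to a common library total, with TMM factors for the composition of each library. The libraries held between 14345819 and 26837227 counts, and model rat 1 had the deepest. Among the 10 genes, 9 had between 3637 and 416903 counts in every library, so that the spread between rats, and not counting, limited their precision. Apoc1 had only 63 to 194 counts and stood at 3.68 to 8.30 CPM. How completely its entry captures the reads of the gene was not tested. Levels are compared between groups for each gene and not between genes, since no rat gene lengths were used.

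The tissue carried the markers of hepatocytes. Of 8 hepatocyte markers 7 were in the table, and the most abundant, Alb, ranged from 87212 to 145607 CPM. Markers of the small intestine, the other main source of Apob, Apoa1 and Apoa4, were near the floor. Vil1, Fabp2, Cdx2, Slc5a1 and Olfm4 had between 0 and 31 counts in each library, and Cdx2 had 1 count in control rat 2 and none elsewhere. Cdh17, a cadherin of both liver and intestine, was the sixth marker matched and stood at 25.8 to 199 CPM. Lct, Alpi, Cdx1 and Muc2 were not matched.

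The 10 genes together took 2.13, 2.36 and 2.551% of all counts in control rats 1, 2 and 3. In the model rats they took 3.23, 2.79 and 2.70%, and in the HME rats 2.78, 2.61 and 2.90%. Every fructose-drinking rat thus gave a larger share than every control rat. The mean difference was 0.559 percentage points between model and control and 0.415 between HME and control, each with a two-sided exact permutation p of 0.1, the smallest that 3 rats against 3 can give. Between HME and model the difference was -0.144 percentage points (two-sided exact permutation p = 0.6), and these groups overlapped. Most of the share came from Apoe, Apob and Apoc3. They took 0.978, 0.444 and 0.306% of all counts in control rat 1 and 1.55, 0.493 and 0.576% in model rat 1.

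**Figure D1:**
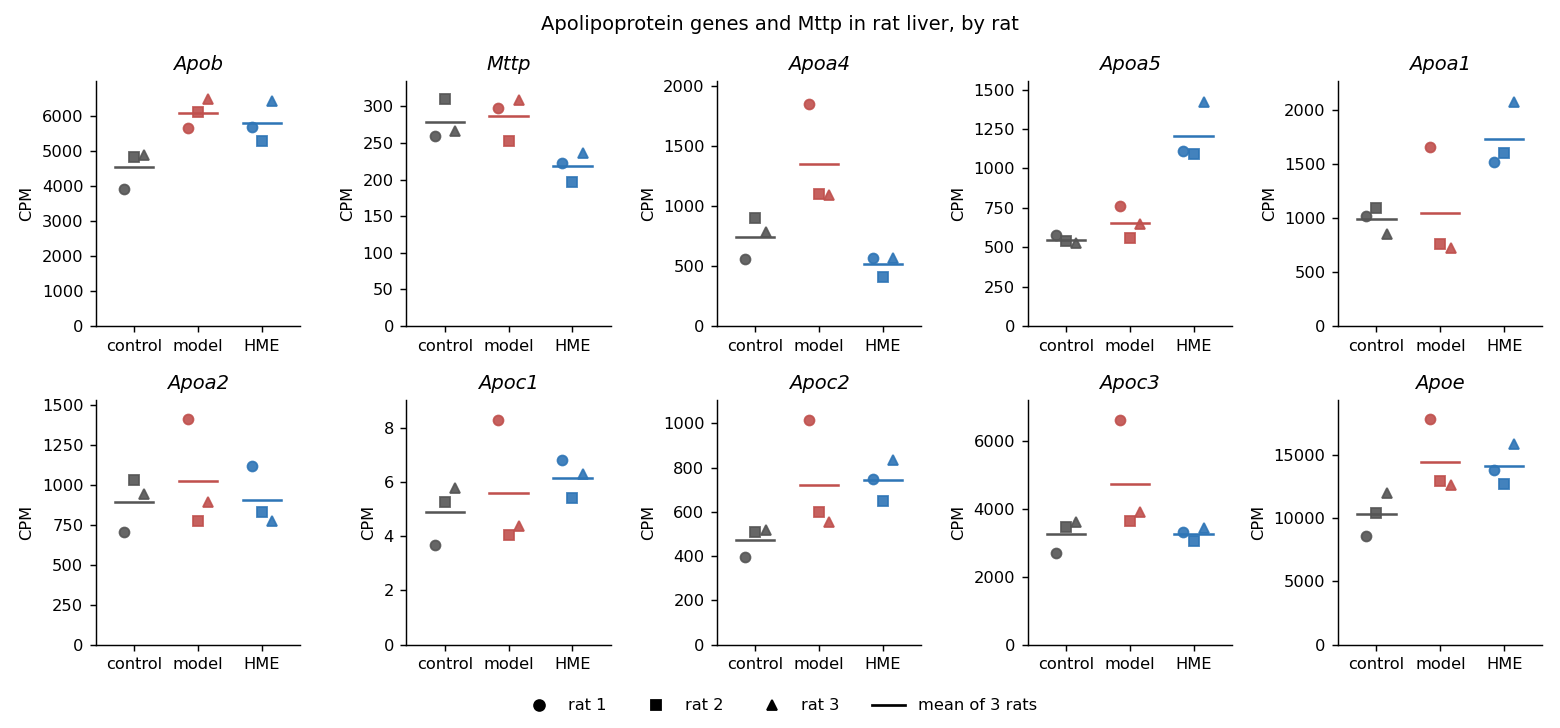
Level of each of the 10 genes in CPM (vertical axes, linear and starting at 0) in the control, model and HME groups, with a point for each rat and a line at the mean of 3 rats. Apoa4 is lowest in the HME rats on average (513 CPM) and highest in the model rats (1348 CPM), and all 3 HME rats lie above all others for Apoa5 (1089.6 to 1422 CPM). Model rat 1 is the highest point in 6 of the 10 panels.

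The first comparison asked what fructose alone did. None of the 10 genes was called changed in the model group, where a call by edgeR's quasi-likelihood test needed a log2 fold change of 0.5 or more in either direction at an FDR (Benjamini-Hochberg) no higher than 0.01. The higher values were those of Apoa4 and the VLDL surface genes Apoc2, Apoc3 and Apoe, together with Apob. In each of these 5 genes all 3 model rats lay above all 3 control rats in CPM, and with library size alone Apob and Apoe overlapped. The fitted levels were 1.34-fold (Apob) to 1.81-fold (Apoa4) those of the control group. Apoa5, Apoa1, Apoa2, Apoc1 and Mttp overlapped between the groups.

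Across the table edgeR called 10 of 12486 genes (0.0801%) and DESeq2 256 (2.05%), and the groups did not overlap in 2635 genes (21.1%). For the 10 genes the corresponding counts were 0 by edgeR, 0 by DESeq2, and 5 without overlap (50%). An unadjusted edgeR p under 0.05 was found in 3 of the 10, and in 1648 of all genes tested (13.2%). The median log2 fold change of the 10 genes was 0.34, against -0.00107 over all genes tested. Scaling by library size alone moved the median of all genes by -0.144 on the log2 scale in this comparison, and Apoa1 and Mttp then took negative values of -0.10 and -0.11, near that shift.

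Apob (ENSRNOG00000005542), the frame of the particle, was at 3904, 4823 and 4868 CPM in control rats 1, 2 and 3, and at 5658, 6102 and 6461 CPM in the model rats. The lowest model rat was above the highest control rat in CPM. As a share of library counts, model rat 1 (0.493%) lay below control rats 2 and 3 (0.494 and 0.5097%). The group means were 4532 ± 544 and 6074 ± 402 CPM (SD, n = 3), and edgeR gave a log2 fold change of 0.42 with a standard error of 0.165 and an FDR of 0.323. Without control rat 1 it was 0.33. Mttp (ENSRNOG00000010655), which loads the lipid, was at 259, 309.8 and 266 CPM in the control rats and at 297, 253 and 308 CPM in the model rats. The rats of both groups were interleaved. Mttp had a log2 fold change of 0.04, with a 95% confidence interval from -0.30 to 0.38 and an FDR of 0.934 from edgeR.

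Apoa4 (ENSRNOG00000055909) differed most in this comparison. It was at 557, 899 and 779 CPM in the control rats and at 1852, 1097 and 1094 CPM in the model rats. Model rat 1 stood far above the other model rats, which lay close together and still above every control rat. Apoa4 had a log2 fold change of 0.86 (standard error 0.269), with an FDR of 0.225 from edgeR and 0.0454 from DESeq2, and without model rat 1 it was 0.54. Apoa5 (ENSRNOG00000018436), the lipolysis-promoting protein encoded beside it, was at 579, 538 and 527 CPM in the control rats and at 760.3, 559 and 647 CPM in the model rats. Model rat 2 lay among the control rats, and the log2 fold change was 0.26 (FDR 0.532 from edgeR).

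The genes of the HDL proteins were split by 1 animal. Apoa1 (ENSRNOG00000045679) was at 1024, 1092 and 853 CPM in the control rats and at 1662, 764 and 727 CPM in the model rats. Model rat 1 was thus above all control rats and model rats 2 and 3 below all of them. EdgeR fitted 0.09 on the log2 scale (FDR 0.926), which became -0.43 (FDR 0.216) when model rat 1 was left out. Apoa2 (ENSRNOG00000003500) was at 703, 1028 and 946 CPM in the control rats and at 1412, 776 and 893 CPM in the model rats, again with model rat 1 alone on top. Its log2 fold change of 0.21 (FDR 0.775 from edgeR) became -0.11 without that rat.

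Among the C apolipoproteins, the lipase cofactor Apoc2 (ENSRNOG00000018402) was at 397, 509.5 and 518 CPM in the control rats and at 1014, 599 and 556 CPM in the model rats. The lipase inhibitor Apoc3 (ENSRNOG00000047503) was at 2695, 3458 and 3608 CPM in the control rats and at 6622, 3656 and 3911 CPM in the model rats. For both genes the model rats were all above the control rats, but model rats 2 and 3 were close to the highest control rat and model rat 1 was far away. Log2 fold changes of 0.61 for Apoc2 (FDR 0.349 from edgeR) and 0.54 for Apoc3 (FDR 0.429) became 0.26 and 0.20 without model rat 1. Apoc1 (ENSRNOG00000051784), a small inhibitor of particle uptake, was at 3.68, 5.25 and 5.79 CPM in the control rats and at 8.30, 4.05 and 4.38 CPM in the model rats. The groups overlapped, and the log2 fold change of 0.20 (FDR 0.831 from edgeR) became -0.23 without model rat 1.

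Apoe (ENSRNOG00000018454), the receptor ligand of remnants, was at 8612, 10406 and 11989 CPM in the control rats and at 17845, 12916 and 12664 CPM in the model rats. In CPM the groups did not overlap, with model rats 2 and 3 only slightly above control rat 3, and as a share of library counts model rat 3 (1.2544%) lay just below control rat 3 (1.2553%). For Apoe edgeR gave a log2 fold change of 0.49 with a standard error of 0.215 and an FDR of 0.382, and it was 0.29 without model rat 1.

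Model rat 1 was the highest of the 9 rats in 6 of the 10 genes, and control rat 1 was the lowest in 6. Of all 12897 genes that passed the filter over the 9 libraries, model rat 1 was highest in 20.4% and lowest in 21.7%, and control rat 1 was lowest in 11.6%. Model rat 1 was also highest in 45 of the 100 most abundant genes. The summed level of the 7 hepatocyte markers was 139440.0, 177169 and 162725 CPM in the control rats, 223969, 176462 and 192604 CPM in the model rats and 177818, 173632 and 216625 CPM in the HME rats. Model rat 1 was thus highest and control rat 1 lowest for these markers too, and their part in the differences above was not tested. In whole liver, fewer cells of a type and less RNA per cell cannot be told apart.

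**Figure D2:**
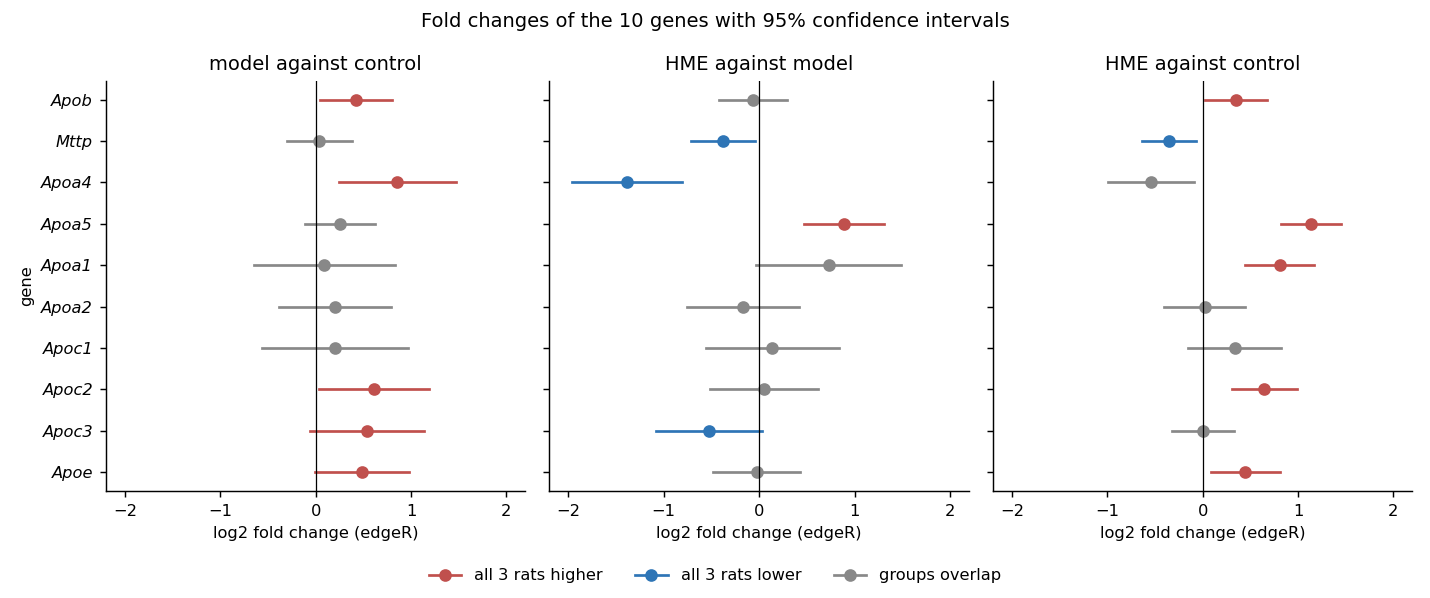
Log2 fold change (horizontal axes) of each of the 10 genes in the 3 comparisons, from edgeR with 3 rats in each group. Points are the fitted values, lines the 95% confidence intervals, and colours show whether all 3 rats of the first-named group lay above, below or among those of the other group. Apoa4 reaches 0.86 in model against control and -1.39 in HME against model, and Apoa5 reaches 1.14 in HME against control.

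The second comparison asked what the extract added to fructose. Here neighbouring genes stood on opposite sides, since every HME rat had less Apoa4 and more Apoa5 than any model rat. Apoa4 had a fitted level 0.382-fold that of the model group and Apoa5 a level 1.85-fold. Apoc3 and Mttp were also lower in all 3 HME rats, whereas Apob, Apoe and Apoc2 had nearly the same means in both groups. None of these was called by edgeR, and DESeq2 called Apoa4 lower and Apoa5 higher.

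Across the table edgeR called 17 of 12502 genes (0.136%) and DESeq2 147 (1.18%), and 1753 (14%) did not overlap. Of the 10 genes edgeR called 0, DESeq2 2 and 4 did not overlap (40%). The unadjusted edgeR p was under 0.05 in 3 of the 10, and in 1003 of all genes tested (8.02%). Their median log2 fold change was -0.05, and their values ran from -1.39 to 0.89. The scaling by library size alone moved the median of all genes by only -0.000269 in this comparison.

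Apoa4 was at 564.5, 409.8 and 564.0 CPM in HME rats 1, 2 and 3. Every value was well under the lowest model rat at 1094 CPM. The group means were 513 ± 89.2 in HME and 1348 ± 437 CPM in model (SD, n = 3). The log2 fold change was -1.39, with a standard error of 0.252 and a 95% confidence interval from -1.97 to -0.81. The FDR was 0.0775 from edgeR and 1.51e-05 from DESeq2. Leaving out 1 rat at a time gave -1.52 to -1.09, with edgeR FDR values from 0.0628 to 0.311.

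Apoa5 was at 1109, 1089.6 and 1422 CPM in the HME rats, and the highest model rat was at 760.3 CPM. HME rat 3 was the highest of the 9 rats, and the other HME rats lay together. The group means were 1207 ± 187 in HME and 655 ± 101 CPM in model. The log2 fold change was 0.89 (standard error 0.182), with an FDR of 0.125 from edgeR and 0.000821 from DESeq2. With 1 rat left out it ranged from 0.75 to 1.01.

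Apoa1 was at 1525, 1609.8 and 2077 CPM in the HME rats. All were above model rats 2 and 3, and model rat 1, at 1662 CPM, lay among them but below them with library size alone. EdgeR fitted a log2 fold change of 0.73 with a standard error of 0.329 and an FDR of 0.646. Without model rat 1 it was 1.23 (FDR 0.0453), and without model rat 3 it was 0.53 (FDR 0.768). Apoa2 was at 1119, 833 and 773 CPM in the HME rats, and the groups overlapped. Its log2 fold change was -0.17 (FDR 0.915 from edgeR), and 0.13 without model rat 1.

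Apoc3 was at 3319, 3049 and 3448 CPM in the HME rats, all just under the lowest model rat at 3656 CPM. Apoc3 had a log2 fold change of -0.53 (FDR 0.659 from edgeR), and -0.20 without model rat 1. Apoc2, by contrast, was at 749.6, 650.1 and 836 CPM in the HME rats, inside the range of the model rats. Its log2 fold change was 0.05 (FDR 0.973 from edgeR), with a 95% confidence interval from -0.51 to 0.61. Apoc1 was at 6.80, 5.40 and 6.30 CPM in the HME rats and overlapped the model rats (log2 fold change 0.14).

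Apob was at 5663, 5266 and 6411 CPM in the HME rats, and the rats of both groups were interleaved. Apob had a log2 fold change of -0.07, with a 95% confidence interval from -0.42 to 0.29. Mttp was at 223, 196 and 236 CPM in the HME rats. All 3 were below the lowest of the model rats and also below the lowest of the control rats. EdgeR gave Mttp a log2 fold change of -0.38 at an FDR of 0.5598 (standard error 0.146). Apoe was at 13809, 12737 and 15907 CPM in the HME rats, within the range of the model rats (log2 fold change -0.03, 95% confidence interval -0.48 to 0.43).

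The last comparison set fructose with the extract against water. Apoa5 rose in the HME group and was the only one of the 10 genes that edgeR called, at 2.198-fold the level of the control group. Every HME rat was above every control rat in Apoa1, Apoc2, Apoe and Apob, at 1.75-, 1.57-, 1.37- and 1.27-fold, and below every control rat in Mttp, at 0.783-fold. Apoc3 and Apoa2 had almost the same means in both groups. DESeq2 called Apoa5, Apoa1 and Apoc2. The control and model groups of the comparisons above enter here again, so the 3 comparisons are not independent.

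Across the table edgeR called 187 of 12633 genes (1.48%), 83 higher and 104 lower, DESeq2 called 769 (6.09%) and 3807 (30.1%) did not overlap. Of the 10 genes edgeR called 1, DESeq2 3, and 6 did not overlap (60%). The unadjusted edgeR p was under 0.05 in 7 of the 10, and in 3074 of all genes tested (24.3%). Their median log2 fold change was 0.34, against -0.00803 over all genes tested. Scaling by library size alone moved the median of all genes by -0.136, and Apoa2 and Apoc3 then took values of -0.10 and -0.13, near that shift.

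For Apoa5 the control rats lay between 527 and 579 CPM and the HME rats between 1089.6 and 1422 CPM. EdgeR fitted a log2 fold change of 1.14 (standard error 0.141, 95% confidence interval 0.82 to 1.45), with an FDR of 0.00283 from edgeR and 1.65e-12 from DESeq2, and no HME rat came near the control rats. The call rested on 6 libraries, since the edgeR FDR was 0.0157 without control rat 2 and 0.0143 without control rat 3, at log2 fold changes of 1.13 and 1.11. The call was also lost with a replicate block (log2 fold change 1.12, FDR 0.0116 from edgeR). The order of the groups for Apoa5 was control, model and HME, of which control and model overlapped.

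Apoa1 had a log2 fold change of 0.81 (standard error 0.1604), with an FDR of 0.0205 from edgeR and 5.27e-05 from DESeq2. For Apoc2 it was 0.65 (standard error 0.153), with an FDR of 0.0373 from edgeR and 0.00148 from DESeq2. In both genes every HME rat was above every control rat. Apoe (0.45, FDR 0.128 from edgeR) and Apob (0.35, FDR 0.182) stood apart from control in the same way, and their model and HME groups overlapped. For Mttp the value was -0.35, with an FDR of 0.127 from edgeR.

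Apoa4 was on the lower side of control as well, and there the groups overlapped. HME rats 1 and 3, at 564.5 and 564.0 CPM, were above control rat 1 at 557 CPM and below the other control rats. With library size alone all 3 HME rats lay below the control rats. Against control Apoa4 had a log2 fold change of -0.54, with a 95% confidence interval from -0.997 to -0.09 and an FDR of 0.138 from edgeR. The order for Apoa4 was HME, control and model, of which only the neighbours HME and control overlapped. For Apoc3 the fitted log2 fold change was 0.00368 (95% confidence interval -0.33 to 0.33), and for Apoa2 it was 0.02 (-0.40 to 0.44). Apoc1 had a value of 0.33 with an interval from -0.15 to 0.82.

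Among the 10 genes, Apoa4 had the widest span of group means, 1.39 on the log2 scale from HME to model. Apoa5 followed with 1.14 from control to HME, and then Apoa1 with 0.81. Apoa2 had the narrowest at 0.20. Over the 9 rats singly, Apoa4 spanned 2.18 on the log2 scale and Mttp 0.66.

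Ratios of counts within a library need no scaling between libraries. All 45 pairs of the 10 genes were formed, and the pairs described were chosen after their values were seen. Apoa4 and Apoa5, which lie next to each other in the mouse, had the largest log2 differences of all pairs in both comparisons with HME. Their ratio was 0.962, 1.67 and 1.48 in control rats 1, 2 and 3, then 2.44, 1.96 and 1.69 in the model rats, and 0.509, 0.376 and 0.397 in the HME rats. The 3 groups did not overlap, although control rat 2 and model rat 3 were close. On the log2 scale HME was lower than model by a mean difference of -2.24 and lower than control by -1.66, and model was higher than control by 0.59. With 1 rat left out these ranged from -2.38 to -2.11, from -1.89 to -1.49 and from 0.35 to 0.75.

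The ratio of Apoa1 to Apoa4 was 1.84, 1.21 and 1.09 in the control rats, 0.897, 0.696 and 0.665 in the model rats and 2.70, 3.93 and 3.68 in the HME rats. The 3 groups did not overlap, and model rat 1 lay between the other model rats and control rat 3. The ratio of the lipase cofactor Apoc2 to the inhibitor Apoc3 was nearly constant without the extract, at 0.147, 0.147 and 0.144 in the control rats and 0.153, 0.164 and 0.142 in the model rats. It was 0.226, 0.213 and 0.242 in the HME rats, a mean log2 difference of 0.57 from model and 0.64 from control.

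Apob and Mttp showed another order, in which the groups were ordered control, model and HME. The ratio of Apob to Mttp was 15.1, 15.6 and 18.3 in the control rats, 19.0, 24.1 and 21.0 in the model rats and 25.4, 26.8 and 27.1 in the HME rats. No group overlapped another. Each separation of groups described for these ratios had a two-sided exact permutation p of 0.1, the smallest possible here. Groups of this size that do not overlap always give this p. Since the pairs described were chosen after their values were seen, the p adds no evidence to the separations. Of the 45 pairs, 13 (28.9%) did not overlap between model and control, 29 (64.4%) between HME and model and 32 (71.1%) between HME and control. In 23 pairs (51.1%) the HME rats were above both other groups or below both. Over all pairs of 12800 genes with a count in every library, the shares were 19.6, 14.2, 28.7 and 6.59%, and the difference was not tested. Pairs that share a gene are not independent, so a few genes can account for many of the separations. Every pair with Apoa4, for example, did not overlap between HME and model.

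**Figure D3:**
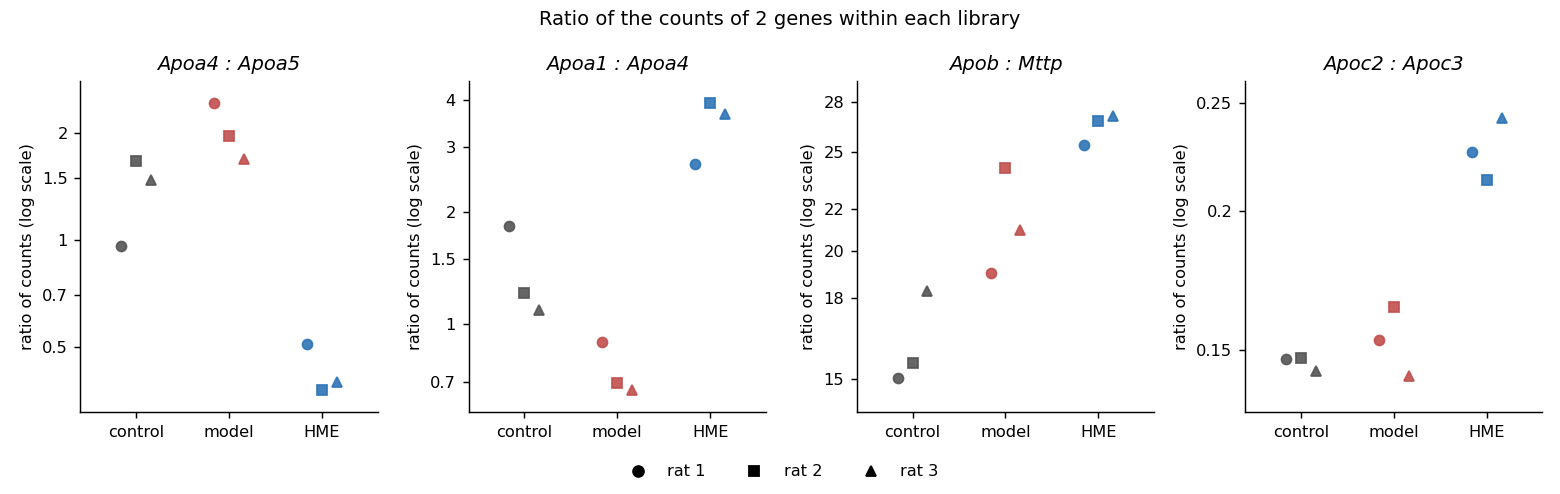
Ratio of the counts of 2 genes within each library (vertical axes, log scales) for Apoa4 to Apoa5, Apoa1 to Apoa4, Apob to Mttp and Apoc2 to Apoc3, with a point for each of the 9 rats. The HME rats are separate from the control and model rats in all 4 panels, for Apoa4 to Apoa5 at 0.376 to 0.509 against 0.962 or more.

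In the mouse annotation of RefSeq, used for gene order only, Apoa1, Apoc3, Apoa4 and Apoa5 are consecutive protein-coding genes, and Apoc2, Apoc4, Apoc1 and Apoe are another such run. In the first cluster the log2 fold changes between HME and model were 0.73, -0.53, -1.39 and 0.89 in that order. In the second they were 0.05 for Apoc2, -0.26 for Apoc4, 0.14 for Apoc1 and -0.03 for Apoe. All 4 genes of the second cluster overlapped between these groups in CPM, and of the first cluster only Apoa1 did. Over all genes tested 14% did not overlap in this comparison. With library size alone Apoa1 did not overlap either. Apoc4, named after its values were seen, was at 180.1, 194 and 200.06 CPM in the control rats, 268, 176 and 199 CPM in the model rats and 181, 176 and 179 CPM in the HME rats.

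The surroundings of these genes are given by 4 further lists. Among 13 other apolipoprotein genes, 12 were tested. EdgeR called 0 of them in each comparison, against 0.0801, 0.136 and 1.48% of all genes tested. DESeq2 called 0, 0 and 1, against 2.05, 1.18 and 6.09% of all genes tested. In the list 2, 1 and 4 genes (16.7, 8.33 and 33.3%) had an unadjusted edgeR p under 0.05 in model against control, HME against model and HME against control, where all genes tested gave 13.2, 8.02 and 24.3%. The gene called by DESeq2 was Apoh, a phospholipid-binding plasma protein. It was at 3039, 3263 and 3429 CPM in the control rats, 5631, 3973 and 4243 CPM in the model rats and 4986, 4224 and 5109 CPM in the HME rats. All 6 fructose-drinking rats were above the control rats, with a log2 fold change in HME against control of 0.55 (FDR 0.0394 from edgeR, 0.000637 from DESeq2). The median of the list was 0.24 in model against control, -0.25 in HME against model and 0.08 in HME against control. The largest values of the list were 0.57 for Apol3 in the first of these comparisons, -0.42 for Apoo in the second and 0.56 for Apof in the last. Of these only Apoo did not overlap, with HME rats at 7.01 to 7.59 CPM and model rats at 8.45 to 10.996 CPM (FDR 0.617 from edgeR).

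Among 27 genes for VLDL assembly and secretion 25 were matched and 24 tested, and 1 was called by edgeR, in both comparisons with the HME group. Over all genes tested edgeR called 0.0801, 0.136 and 1.48% in model against control, HME against model and HME against control. In model against control edgeR and DESeq2 called 0 (2.05% of all genes tested by DESeq2). DESeq2 called 2 lower in HME against model and 3 lower in HME against control (1.18 and 6.09% of all genes tested). An unadjusted edgeR p under 0.05 was found in 1, 5 and 7 genes (4.17, 20.8 and 29.2%, against 13.2, 8.02 and 24.3% of all genes tested). List medians were -0.06, -0.09 and -0.17. The gene called by edgeR was Tm6sf2, a membrane protein of the endoplasmic reticulum that favours the lipidation of VLDL. It was at 42.4, 52.3 and 48.9 CPM in the control rats, 48.4, 47.1 and 52.7 CPM in the model rats and 22.1, 22.2 and 22.1 CPM in the HME rats. Control and model rats were interleaved, and the HME rats were nearly identical, on 406, 411 and 427 counts. Counts of this size cannot resolve so small a spread, so the closeness is not read as a property of the group. Tm6sf2 fell in the HME group, with edgeR log2 fold changes of -1.15 against model (FDR 0.0087, standard error 0.122) and -1.12 against control (FDR 0.00106, standard error 0.112). Against control the call held with any 1 rat left out. Against model it was lost without any of the 6 rats, at log2 fold changes from -1.19 to -1.10 and FDR values from 0.0145 to 0.0754. It was also lost with library size alone (FDR 0.0261) and with a replicate block (FDR 0.0897).

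Pnpla3, a lipid droplet protein with lipase and acyltransferase activity, had the lowest fold changes of this list. It was at 443, 442 and 33.95 CPM in the control rats, 67.3, 14.5 and 41.45 CPM in the model rats and 1.196, 0.378 and 3.00 CPM in the HME rats. Control rat 3 lay among the model rats, and all HME rats were below all others, on 22, 7 and 58 counts. In edgeR it had values of -4.74 against model (FDR 0.0509, standard error 0.755) and -7.63 against control (FDR 0.0525, standard error 1.46), and DESeq2 called both. With 1 rat left out these ranged from -5.69 to -4.18 and from -8.58 to -7.17. The edgeR FDR then ran from 0.0356 to 0.231 and from 0.0107 to 0.189. DESeq2 also called Lman1, a cargo receptor of the secretory pathway, in HME against control (-0.56, FDR 0.0284 from edgeR). Lman1 had -0.52 in model against control and -0.04 in HME against model, and the groups overlapped in both.

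P4hb, the partner subunit of Mttp, was not called by either tool. It was at 1530.3 to 1981 CPM in the control rats, 1377 to 1512 CPM in the model rats and 1307 to 1675 CPM in the HME rats. The coat protein gene Sar1b was at 120.8, 123.6 and 144 CPM in the HME rats, below all model rats, with a log2 fold change of -0.43 (FDR 0.577 from edgeR). For the triglyceride synthesis genes the values in HME against model were -0.12 for Dgat1 and -0.51 for Dgat2. The lipid transfer gene Cideb had -0.07. Apobec1 and A1cf, whose products edit Apob mRNA, had 0.03 and 0.42, and A1cf was at 56.3 CPM in model rat 1 against 156 CPM or more in each other rat. P4hb, Sar1b, Dgat1, Dgat2, Cideb, Apobec1 and A1cf were named after their values were seen.

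Of 21 genes for the processing and uptake of plasma lipoproteins, 20 were matched and 18 tested. EdgeR called 0 in each comparison, against 0.0801, 0.136 and 1.48% of all genes tested. An unadjusted edgeR p under 0.05 was found in 3, 3 and 4 (16.7, 16.7 and 22.2%, against 13.2, 8.02 and 24.3% of all genes tested). DESeq2 called 1, 2 and 1 of the 18, against 2.05, 1.18 and 6.09% of all genes tested. List medians were 0.0083, 0.04 and 0.03. Lpl, the lipase that Apoc2 and Apoa5 promote and Apoc3 slows, is low in adult liver. It was at 4.61, 2.98 and 1.798 CPM in the control rats, 7.49, 7.84 and 11.8 CPM in the model rats and 3.97, 3.94 and 4.55 CPM in the HME rats. Model rats were above all others. Lpl had a log2 fold change of 1.505 in model against control (FDR 0.116 from edgeR, 0.00311 from DESeq2) and -1.11 in HME against model (FDR 0.141 from edgeR, 0.00739 from DESeq2).

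Angptl4, an inhibitor of that lipase, was at 61.8, 58.4 and 169 CPM in the control rats, 271, 106 and 225 CPM in the model rats and 49.3, 42.8 and 52.9 CPM in the HME rats. The HME rats were below all others, and control rat 3 lay among the model rats. In HME against model the log2 fold change was -2.05 (standard error 0.323), with an FDR of 0.0496 from edgeR and 2.46e-08 from DESeq2. With 1 rat left out it ranged from -2.36 to -1.77, and edgeR called it in 1 of the 6 fits, with FDR values from 0.0043 to 0.233. Scarb1, the HDL receptor, was at 65.85, 77.0 and 66.2 CPM in the control rats, 73.2, 87.7 and 76.5 CPM in the model rats and 115, 93.5 and 142 CPM in the HME rats. The HME rats were above all others, with a log2 fold change of 0.74 against control (FDR 0.0264 from edgeR, 0.000987 from DESeq2). Angptl8, a partner of lipase inhibitors, ranged from 26.4 to 374 CPM over the 9 rats and overlapped in each comparison.

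The hepatic lipase gene Lipc, named after its values were seen, was at 334 to 362 CPM in the control rats, 341 to 498 CPM in the model rats and 358 to 363 CPM in the HME rats. It was not called by either tool, and the groups overlapped in each comparison.

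Of 31 regulators of apolipoprotein genes, 30 were matched and tested. In model against control edgeR called 0 (0.0801% of all genes tested) and DESeq2 called 1 (2.05%). In that comparison 10 had an unadjusted edgeR p under 0.05 (33.3%, against 13.2% of all genes tested). In HME against model edgeR called 0 (0.136% of all genes tested) and DESeq2 called 0 (1.18%), with 2 at an unadjusted edgeR p under 0.05 (6.67%, against 8.02%). In HME against control edgeR called 1 lower (1.48% of all genes tested), and DESeq2 called 4 higher and 1 lower (6.09%). In the same comparison 12 had an unadjusted edgeR p under 0.05 (40%, against 24.3%). List medians were 0.17, 0.02 and 0.26. The gene that edgeR called was Srebf1, the insulin-responsive regulator of lipid synthesis. It was at 568, 859.9 and 603 CPM in the control rats, 454, 214 and 607.5 CPM in the model rats and 169.5, 219 and 242 CPM in the HME rats. HME rats were below all control rats, and model rat 2 lay among the HME rats. Srebf1 fell in HME against control by an edgeR log2 fold change of -1.69 (FDR 0.00244, standard error 0.198). The call was lost without HME rat 2 (FDR 0.0106) and with all 9 libraries in one fit (FDR 0.0267).

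The clock repressor Nr1d1, known to act on Apoc3 and Apoa1 in the liver, was at 8.53, 2.03 and 5.66 CPM in the control rats, 13.2, 81.7 and 27.3 CPM in the model rats and 105, 100.7 and 83.8 CPM in the HME rats. The 3 groups did not overlap. HME against control had a value of 4.12 (standard error 0.474, FDR 0.0111 from edgeR, 5.87e-12 from DESeq2). With 1 rat left out it ranged from 3.75 to 4.66, and edgeR called it in 2 of the 6 fits, with FDR values from 0.000147 to 0.0507. In the same comparison DESeq2 called Nr1d2 (1.15, FDR 0.0351 from edgeR), Insig2 (0.79, FDR 0.0448) and Usf2 (0.54, FDR 0.012). In model against control these had values of 0.47, 1.002 and 0.50, and in HME against model 0.69, -0.20 and 0.05. Insig2 and Usf2 were thus already higher in all 3 model rats than in the control rats, and their model and HME groups overlapped. Insig1, which with Insig2 retains sterol-sensing proteins in the endoplasmic reticulum, had -0.95 in model against control (FDR 0.121 from edgeR, 0.00537 from DESeq2). The time of day at which each liver was taken is not given in the sources used here, and its part in the values of Nr1d1 was not tested.

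Of regulators named after their values were seen, Hnf4a, a nuclear receptor on which many apolipoprotein genes depend, was at 696, 586 and 640.5 CPM in the control rats, 505, 385 and 557 CPM in the model rats and 413, 598 and 585.5 CPM in the HME rats. Creb3l3, an activator of Apoa4 and Apoc2, had log2 fold changes of 0.45, -0.14 and 0.30 in model against control, HME against model and HME against control. Ppara had 0.14, 0.49 and 0.63, and was at 8.26 CPM in model rat 1 against 18.4 CPM or more in each other rat. None of these was called by either tool.

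**Figure D4:**
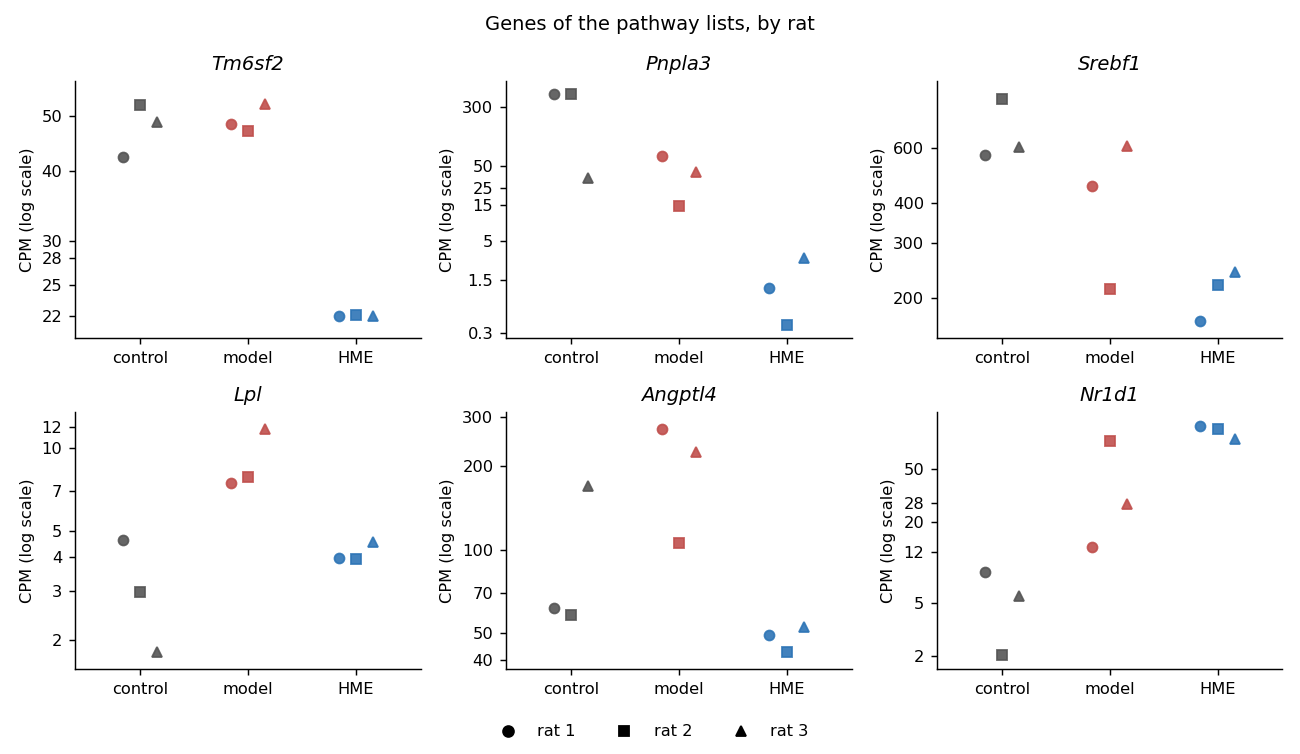
Level in CPM (vertical axes, log scales) of Tm6sf2, Pnpla3, Srebf1, Lpl, Angptl4 and Nr1d1, with a point for each of the 9 rats. The HME rats lie together at 22.1 to 22.2 CPM for Tm6sf2, and model rats are the highest for Lpl at 7.49 to 11.8 CPM.

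**Figure D5:**
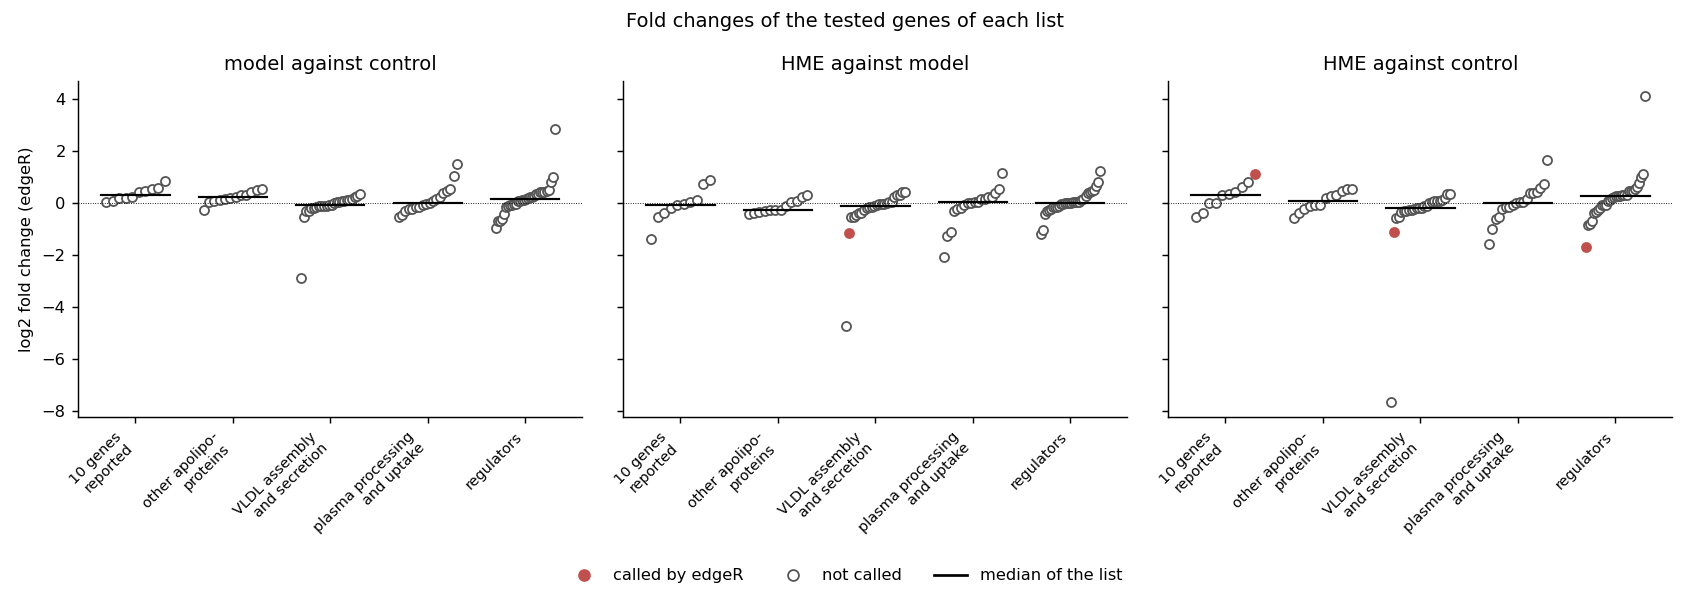
Log2 fold change (vertical axes, edgeR) of every tested gene of the 10 genes reported and of the 4 surrounding lists in each comparison, as points ordered by value within a list, with a line at the list's median. Filled points were called by edgeR, namely Tm6sf2 in both comparisons with HME (-1.15 and -1.12), and Apoa5 (1.14) and Srebf1 (-1.69) in HME against control.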

How the data were processed

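Poly(A)-selected liver RNA was sequenced. The authors aligned the reads with HISAT2 to the rat build Rnor_6.0, per the labels, used HTSeq 0.6.1 in its unstranded setting over exons and deposited raw counts per gene. Reads were therefore not separated by strand where genes on opposite strands overlap. A table of assembled transcripts, whose unit is not stated, was not used. Each comparison was fitted on its 6 libraries with edgeR 4.0.16 (filterByExpr, TMM, robust glmQLFit, two-sided glmQLFTest), after a test on simulated data. CPM use TMM factors over 9 libraries. Alternatives were RLE size factors, library size alone, other count filters, DESeq2 1.42.0, all 9 libraries in one fit, a replicate block, other thresholds and each rat left out. From the 4 surrounding lists, genes called by either tool and the largest change per comparison (mean count of at least 50) are named, with the added genes marked. The members and lists were chosen with earlier results of these data known. No rat sequences or coordinates were used, and the planned promoter search was not run. Nothing in the sources used here says that replicate numbers link rats of different groups. Mia3, Ces1e, Cd36 and Mlxipl were not found by symbol, nor were the markers Plin1, Lep, Pecam1, Ahsg, Prss1, Amy2a3, Ctrb1 and Hba1. Figures and ratios used Python 3.11.15 and fits R 4.3.3. Some genes of the lists are not reported here by name.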

Additional observations from a re-analysis of the deposited data

How the results depend on the processing

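Of 390 recomputed fold changes of the 10 genes, 357 kept direction and call, 3 lost a call, 6 gained one and 24 changed sign. With library size alone the sign changed for Apoa1 (-0.10) and Mttp (-0.11) in model against control and Apoa2 (-0.10) and Apoc3 (-0.13) in HME against control, and with the replicate block for Apoa1 in model against control (-0.0201). With 1 rat left out, the log2 fold changes in model against control ranged from -0.43 to 0.30 for Apoa1, -0.11 to 0.37 for Apoa2, -0.23 to 0.39 for Apoc1 and -0.0147 to 0.12 for Mttp. In HME against model they ranged from -0.35 to 0.13 for Apoa2, -0.0494 to 0.56 for Apoc1, -0.11 to 0.38 for Apoc2 and -0.12 to 0.15 for Apoe, and in HME against control from -0.15 to 0.14 for Apoa2 and -0.11 to 0.0893 for Apoc3. With library size alone 3, 5 and 7 of the 10 genes did not overlap in model against control, HME against model and HME against control, instead of 5, 4 and 6, and over all genes tested the shares without overlap were 22.2, 14.0 and 31.6%.

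Genes called over the whole table, in model against control (10), HME against model (17) and HME against control (187), numbered 71, 38 and 489 with no filter on low counts, 256, 147 and 769 by DESeq2, and 75, 57 and 804 at an FDR of 0.05. All 9 libraries in one fit gave 25 and 113 in the first and last, and library size alone 11 in the second. With 1 rat left out they ranged from 0 to 10, 2 to 12 and 86 to 132. Of the 10 genes, DESeq2 called 2 in HME against model and 3 in HME against control, where no filter and an FDR of 0.05 also gave 3 and leaving out 1 rat gave 0 to 1.

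The deviations of same-numbered rats from their group means correlated at -0.213 to -0.0225. Rats with different numbers were not compared in this way, so these values cannot decide whether the numbers pair the rats. The replicate block gave 0, 7 and 104 calls, and 0 of the 10 genes in HME against control, where Apoa5 had a log2 fold change of 1.12 (FDR 0.0116 from edgeR). The call of Tm6sf2 in HME against model was lost as well (-1.15, FDR 0.0897). At 63 to 194 counts, counting also limits Apoc1. The causes of these shifts were not tested.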

Other observations

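The genes whose pattern over the 9 rats was most like that of 3 of the apolipoprotein genes were found by the root mean square difference of log2 CPM, each gene centred on its own mean, over 12897 genes. For Apoa4, the gene with the widest span, they were Ppcs (0.24), Pir (0.25) and Adamts4 (0.26), where Apoa4 itself varied by 0.63 around its mean. Ppcs, an enzyme of coenzyme A synthesis, was at 41.8, 83.5 and 38.7 CPM on average in the control, model and HME groups. Pir was at 8.92, 16.1 and 8.001 CPM and Adamts4 at 1.71, 2.48 and 1.17 CPM. Of the other 9 genes reported, Apoc3 came nearest, at rank 49 (0.38). For Apob the nearest were Pabpc4 (0.05), Proz (0.08) and Tf (0.08), which encode a poly(A)-binding protein, a plasma protein of coagulation and transferrin. Pabpc4 was at 73.4, 98.8 and 96.2 CPM on average in the 3 groups. The nearest of the genes reported was Apoe, at rank 579 (0.19), where Apob itself varied by only 0.22 around its mean. For Apoe the nearest were Afm (0.07), Ppdpf (0.07) and Fxyd1 (0.08), and Afm, a vitamin E-binding plasma protein, was at 861, 1231 and 1182 CPM on average. Apoc2, from the same cluster as Apoe in the mouse, came at rank 44 (0.13), and Apoe itself varied by 0.29.

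Markers of other cell types varied between rats of the same group. The 10 markers of Kupffer cells and leukocytes summed to 563, 257 and 351 CPM in the control rats, 284, 423 and 180.1 CPM in the model rats and 312, 266 and 355 CPM in the HME rats, with Clec4f the most abundant. The 5 matched endothelial markers summed to between 87.8 CPM in model rat 3 and 267 CPM in model rat 2. The 7 stellate markers summed to between 191 CPM in model rat 1 and 362 CPM in HME rat 2. In each of these 3 lists the groups overlapped. The 2 matched markers of pancreas summed to 13.1 to 16.3 CPM in the control rats, 18.5 to 27.99 CPM in the model rats and 16.1 to 26.4 CPM in the HME rats. Nearly all of this sum was Cela1, since the other marker had under 10 counts in every library. Model and control did not overlap, which was so for 21.1% of all genes tested in that comparison. The pancreas content of the samples was not tested. The 4 markers of proliferating cells summed to 3.10 to 6.45 CPM in the control rats, 5.52 to 12.02 CPM in the model rats and 0.924 to 3.93 CPM in the HME rats. There model and HME did not overlap, which was so for 14% of all genes tested in that comparison.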
